A study of Saccharomyces cerevisiae with 64 samples.

Results

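The kfc1 mutant of budding yeast carrying the PzevIME1 construct was followed from 0 to 8 h in sporulation conditions. This course makes up 10 of the 64 samples of the series: 5 times (0, 2, 4, 6 and 8 h) with 2 biological replicates each, in the Saccharomyces cerevisiae strain background S288c. Its samples were chosen by the labels alone, as the kfc1 -- genotype with IME1 overexpression at those times. The reference columns are kfc1 with IME1 at 0 h and, for a look across strains, 10 samples of wild type with IME1 at the same times, which were re-used from another series. All groups of both courses, including 0 h, carry the IME1 construct, and the inducer and when it was given are not stated in the sources used here. Ploidy and mating type are likewise not stated.

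Polyadenylated RNA was sequenced and the deposited table holds 1 combined log2 ratio per gene and condition, relative to wild type without overexpression at 0 h. Replicates were merged before deposit, so no value below has a replicate error, no test was possible, and nothing is known of the depth of a sample. A gene counts as higher or lower when the log2 difference between the 2 times compared is at least 1 in size, which is 2-fold, and "rose" and "fell" are used in that sense. Of 6660 genes in the table, 6499 had a value at all 5 times. In bulk RNA, fewer cells in a given state and less RNA per cell cannot be told apart.

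Ime1 is the transcription factor that starts meiosis in yeast. It acts with the DNA-binding protein Ume6 at promoters of early meiotic genes, many of which carry a short element called URS1. Those genes serve premeiotic DNA replication, the pairing of chromosomes and recombination. A later transcription factor, Ndt80, turns on the middle genes that carry cells through the meiotic divisions, and spore wall genes follow. VIR1 (YGL036W), the gene that the mutant name was taken to stand for, encodes a protein of the complex that places N6-methyladenosine on mRNA early in yeast meiosis.

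VIR1 was far below the wild-type reference at every time. Its log2 ratio was -6.32, -7.52, -7.26, -7.45 and -7.70 at 0, 2, 4, 6 and 8 h, so it was low in all 5 columns. Values this far below the reference may rest on few reads, and its differences from 0 h, of -1.38 to -0.93, are between very low ratios. The construct's gene, IME1, had log2 ratios of 0.59, 3.05, 3.29, 3.47 and 3.44 at 0, 2, 4, 6 and 8 h. IME1 thus stood at least 2.45 log2 units above its 0 h value from 2 h on, and moved by at most 0.24 between later neighbouring times. URA3, a gene of pyrimidine synthesis often used as a selection marker, was already at 4.47 at 0 h and lay between 6.72 and 7.11 from 2 to 8 h.

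Differences were already wide at 2 h and widened further. At 2 h, 555 of 6504 genes (8.53%) were 2-fold higher than at 0 h and 271 (4.17%) were lower. At 4 h, 564 genes (8.67%) were higher and 297 (4.57%) lower. By 6 h the counts were 726 (11.2%) and 415 (6.38%), and at 8 h they were 766 (11.8%) and 432 (6.64%). The median of all genes lay between 0.03 and 0.05 log2 units in these 4 comparisons. Each deposited column has a median near 0, so a shift common to all genes cannot be read from these values. The standard deviation over genes was 0.76 at 2 h and 0.92 at 8 h against 0 h.

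Steps between neighbouring later times were much smaller. From 2 to 4 h, 55 of 6509 genes (0.845%) rose and 59 (0.906%) fell. From 4 to 6 h, 8 genes (0.123%) rose and 10 (0.154%) fell. From 6 to 8 h, 15 genes (0.231%) rose and 3 (0.0461%) fell. The standard deviation over genes of these 3 steps was 0.33, 0.27 and 0.23 log2 units, in time order.

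**Figure D1:**
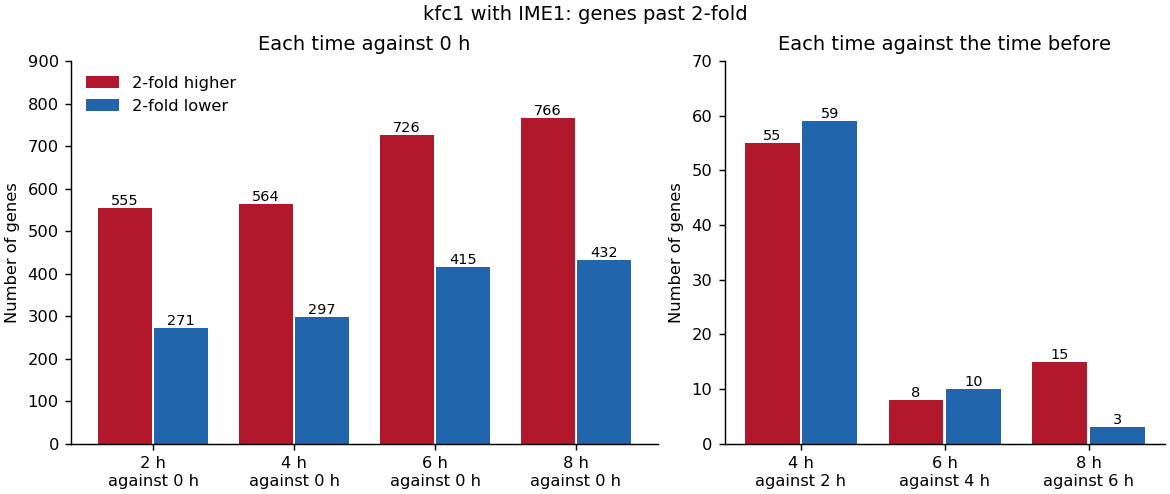
Number of genes at least 2-fold higher (red) or lower (blue) in kfc1 with IME1, for each time against 0 h (left) and each time against the time before (right, with its own scale). Higher genes numbered 555 at 2 h and 766 at 8 h against 0 h, whereas no later step moved more than 59 genes in 1 direction.

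Genes entered both sets at every time, and the most at 2 h. Of the 986 genes (15.2% of 6499) that were 2-fold higher at 1 or more times, 555, 157, 182 and 92 first passed at 2, 4, 6 and 8 h. Of the 575 genes (8.85%) that were lower at 1 or more times, 271, 106, 129 and 69 first passed at those times. Higher at every time were 352 genes (5.42%) and lower at every time 166 (2.55%).

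Genes that lost their 2 h difference by 8 h were few. Of the genes higher at 2 h, 39 were less than 0.5 log2 units above 0 h at 8 h, and of those lower at 2 h, 18 were less than 0.5 below it. Both counts include genes that lay on the other side of their 0 h value by 8 h, such as HSP26, at 0.68 above it. SSU1, a sulfite pump, was 2.12, 0.86, 0.33 and 0.39 log2 units above 0 h at 2, 4, 6 and 8 h. MRH1, a plasma membrane protein, was 1.56 above 0 h at 2 h and -0.52 at 8 h. The ergosterol synthesis genes ERG1, ERG2 and ERG24 were 1.22, 1.15 and 1.04 above 0 h at 2 h, and 0.12, 0.37 and 0.07 at 8 h. PDC6, a minor pyruvate decarboxylase, was the 1 gene that passed in both directions, at -2.31 log2 units at 2 h and 2.18 at 8 h against 0 h.

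Among the regulators of meiosis, the kinase gene IME2 and the RNA-binding protein gene RIM4 rose with IME1, and NDT80 did not pass the rule. IME2, a kinase that acts downstream of Ime1, had log2 ratios of 0.19, 3.86, 4.25, 4.45 and 4.68 at 0, 2, 4, 6 and 8 h. RIM4, whose product restrains the translation of meiotic mRNAs, had 0.02, 2.39, 2.71, 2.85 and 2.91 at the same times. NDT80 stayed between 0.15 and 0.33 in all 5 columns, and no later difference from 0 h exceeded 0.17.

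Genes linked to mRNA methylation rose in part. PHO92 encodes the yeast reader of N6-methyladenosine, and its log2 ratio was -1.14, 4.86, 5.31, 5.28 and 5.24 at 0, 2, 4, 6 and 8 h. SLZ1, a partner of the methyltransferase Ime4, had -0.04, 2.56, 3.62, 3.59 and 3.66. IME4 itself stood at 0.22 at 0 h and between 0.36 and 1.14 later, at most 0.92 above 0 h and under the 2-fold rule. It overlaps an antisense RNA, and whether counting used strand is not given in the sources used here. MUM2, a further member of that complex, reached 0.91 above 0 h at 8 h, and KAR4, another, passed at 6 h (1.14) and 8 h (1.24).

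Of all 25 regulators, 5, 6, 8 and 7 were higher at 2, 4, 6 and 8 h, and 2, 1, 2 and 2 were lower. The higher share was 20, 24, 32 and 28%, against 8.53, 8.67, 11.2 and 11.8% of all genes. The lower share was 8, 4, 8 and 8%, nearer to the 4.17, 4.57, 6.38 and 6.64% of all genes. The lower regulators were VIR1, taken as the mutant gene, and XBP1. XBP1, a repressor made in stress and starvation, had log2 ratios of 0.74 at 0 h, -0.85 at 2 h and -0.28 at 8 h. UME6 was 0.60 to 0.93 above 0 h, and RME1, a repressor of IME1 in haploid cells, 0.29 to 0.52, both under the rule. SUM1, the repressor of middle genes, differed from 0 h by at most 0.19 in size.

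Strand exchange genes had the highest median of the 33 gene lists at each time. Their products pair a broken DNA end with the homologous chromosome. Of 13 genes, 9 were higher at 2 h and 10 at 4, 6 and 8 h, and none was lower. The median difference from 0 h was 2.95, 4.31, 4.55 and 4.79 at 2, 4, 6 and 8 h.

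SAE3 (YHR079C-A, chromosome VIII from 262192 to 262553) and MEI5 (YPL121C, chromosome XVI from 320962 to 321630) encode the 2 partners that load the meiotic recombinase Dmc1. SAE3 had log2 ratios of -1.56, 5.09, 5.84, 5.76 and 5.45 at 0, 2, 4, 6 and 8 h, and its difference from 0 h was the largest of all genes at each time, between 6.65 at 2 h and 7.40 at 4 h. MEI5 had -0.04, 5.25, 6.36, 6.46 and 6.89. MEI5 thus went on to its highest value at 8 h, whereas SAE3 was highest at 4 h. DMC1 itself had -0.24, 3.68, 4.44, 4.32 and 4.55. The pair HOP2 and MND1, which helps Dmc1 find the homologue, was 3.54 and 4.27 above 0 h at 2 h and 5.61 and 5.38 at 8 h. HED1, a meiosis-specific regulator of recombination, and MEK1, the kinase that steers repair to the homologue, were 4.97 and 4.84 above 0 h at 8 h.

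Strand exchange genes that also serve vegetative repair had smaller differences. RAD54 ran between 1.11 and 1.52 above 0 h. RAD52, RAD55 and RAD57 were under the rule at every time, with at most 0.73.

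Chromosome axis and synaptonemal complex genes rose at 2 h in part and at 4 h in most. These build the protein core of meiotic chromosomes and the structure that joins homologues. Of 17 genes, 10 were higher at 2 h and 14 at 4, 6 and 8 h, with medians of 1.89, 2.42, 2.60 and 2.65 and none lower. HOP1, an axis protein, had log2 ratios of -0.44, 3.57, 4.71, 4.83 and 5.03 at 0, 2, 4, 6 and 8 h. NDJ1, which ties telomeres to the nuclear envelope, had -0.72, 3.95, 4.97, 5.27 and 5.39. ECM11, needed to assemble the synaptonemal complex, had -1.23, 3.29, 4.43, 4.65 and 4.84. All 3 had most of their rise by 2 h.

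Among the cohesin genes, REC8 passed first. REC8, the meiotic cohesin subunit, was 2.65 above 0 h at 2 h and 3.92 at 4 h. The shared subunits SMC3, SMC1 and IRR1 were 0.91, 0.86 and 0.67 above 0 h at 2 h, under the rule, and 2.11, 1.85 and 1.51 at 4 h. At 8 h they stood at 2.65, 2.36 and 2.13. SPO22, which takes part in synapsis, likewise stood at 0.79 at 2 h and 1.87 at 4 h. Of the 55 genes that rose from 2 to 4 h, 8 were on this list. CST9, which marks future crossover sites, lay below 0 h at each time, by -0.41 to -0.12 and under the rule.

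Genes for making double-strand breaks were higher in part. Of 11, 4 were higher at 2 h, 5 at 4 h and 6 at 6 and 8 h, with none lower. The higher share was 36.4, 45.5, 54.5 and 54.5%, against 8.53, 8.67, 11.2 and 11.8% of all genes. SPO11, the enzyme that cuts, was 1.78 above 0 h at 2 h and 2.56 at 8 h. MEI4, REC104 and REC114, partners needed for the cut, were 3.06, 2.51 and 1.69 at 2 h and 3.90, 3.09 and 2.10 at 8 h. REC102 passed from 4 h and SAE2, which helps trim the ends, from 6 h. MRE11, RAD50 and XRS2, which also serve vegetative repair, differed by at most 0.65 in size, and REC107 differed by at most 0.68 in size.

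Crossover genes rose in part. Of 12, 2 were higher at 2 h, 3 at 4 h and 6 h and 5 at 8 h. The higher share was 16.7, 25, 25 and 41.7%, against 8.53, 8.67, 11.2 and 11.8% of all genes. The meiotic mismatch repair relatives MSH4 and MSH5 were 1.86 and 0.38 above 0 h at 2 h, and 2.76 and 1.90 at 8 h. MSH4 passed at every time, and MSH5 from 4 h. The helicase gene HFM1 was 1.24 to 2.19 above 0 h. TOP3 and MUS81 passed at 8 h only, at 1.28 and 1.05.

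Among 11 genes of chromosome segregation in meiosis I, SPO13 stood apart from the others. SPO13 keeps sister chromatids together in that division, and its log2 ratios were -0.37, 4.09, 4.63, 4.64 and 4.91 at 0, 2, 4, 6 and 8 h. No other gene of the list passed at 2 h, and 6 of 11 passed at 6 and 8 h. The higher share was 9.09% at 2 h, near the 8.53% of all genes. At 6 and 8 h it was 54.5%, against 11.2 and 11.8% of all genes. MAM1, a monopolin subunit, was 0.55 above 0 h at 2 h and 1.37 at 8 h, and SGO1, the protector of centromeric cohesion, 0.86 and 1.31.

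**Figure D2:**
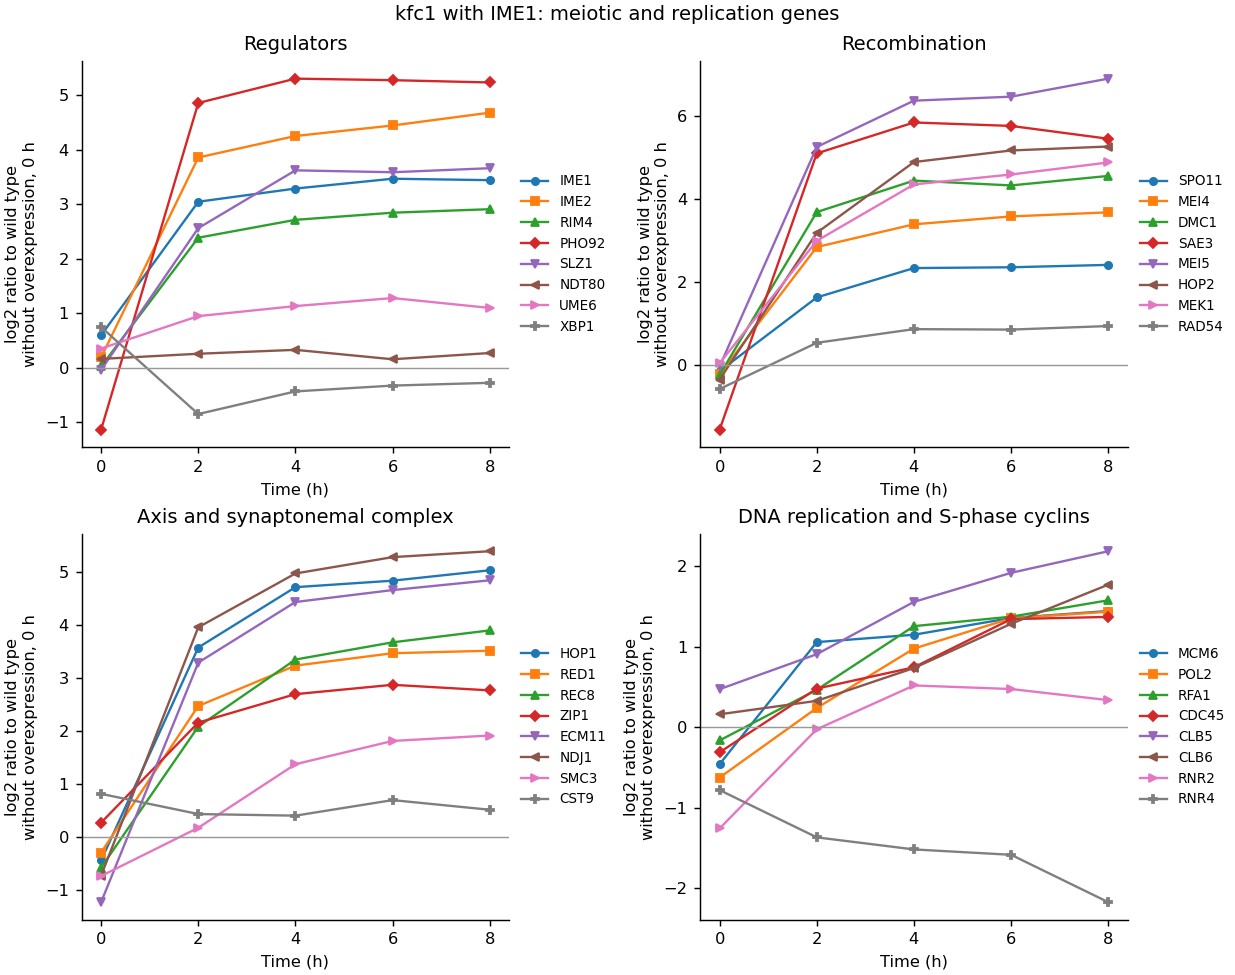
Log2 ratio to wild type without overexpression at 0 h (vertical axes) against time in h (horizontal axes) for genes of 4 groups in kfc1 with IME1; each point is the authors' combined value of 2 replicates. IME2 and RIM4 rise together with IME1 while NDT80 stays between 0.15 and 0.33, and SMC3 rises later than HOP1.

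The 300 bases before each annotated start codon in the RefSeq R64 genome were searched for fixed letters on both strands. The 7 motifs searched were GGCGGC (the core of URS1), GNCNCAAAA (the middle sporulation element bound by Ndt80), ACGCGT (the MCB element of replication genes), TGACTC (bound by Gcn4), CACGTG (bound by Cbf1), GATAAG (bound by GATA factors) and AGGGG (the stress element). None of them contains another. Upstream sequence was taken for 5881 of the 6499 genes. A match is a description of the letters and not of a bound site.

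The URS1 core was found before 5.29% of all 5881 genes and 16.6% of 320 genes higher at every time. Of the genes first higher at 2 h it was found before 13% of 501, and of those first higher at 4 h before 13.5% of 141. The shares were 4.22% of 166 genes first higher at 6 h and 2.41% of 83 first higher at 8 h. It preceded 6 of 13 strand exchange genes (46.2%) and 9 of 17 axis and synaptonemal complex genes (52.9%). Of 154 genes lower at every time, 3.9% held it. The following windows show it before genes of the early rise, 5′ to 3′ on the strand of the gene, with the core or its reverse complement in capitals:
SAE3, chrVIII:262645-262674, minus strand: gttctgcctaatGGCGGCtattctatttct
MEI5, chrXVI:321739-321768, minus strand: gaaaaagtattaGCCGCCcaaacttctatg
HOP2, chrVII:435484-435513, plus strand: gattatgtcctcGGCGGCtaaattttccat
HOP1, chrIX:226419-226448, plus strand: gtttttaacctgGGCGGCtaaattgtactt
NDJ1, chrXV:117525-117554, minus strand: gcgtagaagttgGGCGGCtattttgacaga
SPO16, chrVIII:402753-402782, minus strand: gcgtgaaaagtgGGCGGCtaaaaccgagaa
SPO13, chrVIII:131940-131969, plus strand: tattgagaaataGCCGCCgacaaaaaggaa
PHO92, chrIV:1224606-1224635, minus strand: acgatgtacctcGGCGGCtaatctttttgg
RIM4, chrVIII:56355-56384, plus strand: gcttaacgtttcGGCGGCtgtgatcaagga

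In these windows the core ended 83 to 277 bases before the start codon, and in 8 of the 9 the letters TA directly followed the core on the strand that spells GGCGGC. ECM11, IME2 and AMA1, which rose as well, did not hold these letters within the 300 bases.

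Middle genes were mostly within 2-fold of 0 h. Of 46, 4, 8, 9 and 12 were higher at 2, 4, 6 and 8 h, while 1, 3, 3 and 3 were lower. The higher genes made up 8.7, 17.4, 19.6 and 26.1% of the list, against 8.53, 8.67, 11.2 and 11.8% of all genes. Medians were 0.16, 0.20, 0.25 and 0.32. AMA1, a meiotic activator of the anaphase-promoting complex, had log2 ratios of -0.53, 2.56, 3.44, 3.71 and 3.92 at 0, 2, 4, 6 and 8 h. MPC54 and SPO21, which form the plaque where spore membranes start, were 2.45 and 1.63 above 0 h at 8 h. The S-phase cyclins CLB5 and CLB6, also on this list, were 1.71 and 1.61 above 0 h at 8 h. CLB1, SPS4 and OSW2 fell, to -1.99, -1.34 and -1.44 relative to 0 h at 8 h. The middle sporulation element was found before 47.8% of these 46 genes and 5.17% of all genes, and before 4.69% of those higher at every time.

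AMA1 and CLB1 did not hold it within the 300 bases. The upstream windows of a pair of genes that do show it in capitals. NDT80 has it before its own start codon and SMK1 encodes a kinase of spore wall formation:
NDT80, chrVIII:356465-356493, plus strand: ttgccctccaTTTTGTGTCacctatttaa
SMK1, chrXVI:666024-666052, plus strand: aaaaaaacacGTCCCAAAAcagtccttct

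Late sporulation genes gave no common direction. Of 8, none was higher at 2 h, 1 at 4 and 6 h and 2 at 8 h, and SPS100 was the 1 lower gene at every time. The higher share was 12.5% at 4 and 6 h, near the 8.67 and 11.2% of all genes. At 8 h it was 25%, against 11.8%. The lower share was 12.5% at each time, against 4.17, 4.57, 6.38 and 6.64% of all genes, and rests on that 1 gene. SPS100, a spore wall protein gene, had log2 ratios of -0.68 at 0 h and -3.65, -3.59, -4.49 and -4.65 at 2, 4, 6 and 8 h. Its position overlaps the noncoding transcript SUT169, and the reads of the 2 may not be separable. DIT1 and DIT2, which make dityrosine for the spore wall, differed from 0 h by at most 0.36 in size.

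DNA replication genes rose slowly and by modest amounts. Of 48, 7, 23, 30 and 34 were higher at 2, 4, 6 and 8 h, with medians of 0.58, 0.95, 1.28 and 1.39. The higher share was 14.6, 47.9, 62.5 and 70.8%, against 8.53, 8.67, 11.2 and 11.8% of all genes. The size of the rise depends on the start. At 0 h the median log2 ratio of the list was -0.39 here and -0.01 in kfc1 without overexpression. In this course it was 0.19 at 2 h and 1.01 at 8 h. POL2, a replicative polymerase subunit, had log2 ratios of -0.63, 0.24, 0.98, 1.35 and 1.43 at 0, 2, 4, 6 and 8 h. MCM6, of the replicative helicase, was 1.52 above 0 h at 2 h and 1.90 at 8 h, and RFA1, of the single-strand binding complex, 0.63 and 1.74. Against this direction, RNR3 and RNR4, subunits of ribonucleotide reductase, were -1.06 and -1.39 at 8 h. RNR2, a further subunit, was 1.59 above 0 h. The MCB element was found before 50% of the 48 genes and 3.54% of all genes. It was also found before 28.4% of the genes first higher at 4 h, against 4.79% of those first higher at 2 h.

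Amino acid synthesis genes were the largest group already higher at 2 h. Of 74 genes with a value, 55, 50, 54 and 53 were higher at 2, 4, 6 and 8 h, and 46 at every time. Their median was highest at 2 h, at 1.88, and 1.44, 1.53 and 1.45 later. ARG1, of arginine synthesis, had log2 ratios of -0.39, 5.30, 4.83, 4.86 and 4.97 at 0, 2, 4, 6 and 8 h. HOM3, of the threonine and methionine pathway, was 3.61 above 0 h at 2 h and 3.17 at 8 h. ARG4, of arginine synthesis, was 3.70 and 2.84. BAT2, a branched-chain aminotransferase used in breakdown, fell at 2, 4 and 6 h, by up to 1.46. The letters TGACTC were found before 53.3% of 75 list genes and 7.91% of all genes. They were also found before 18.6% of genes first higher at 2 h and 5.67% of those first higher at 4 h.

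INO1, SRT1 and RNP1 were among the 10 highest genes with a symbol at each time and belong to no list. INO1 makes inositol phosphate, and its log2 ratio was -0.55, 4.73, 5.34, 4.97 and 5.09 at 0, 2, 4, 6 and 8 h. SRT1 makes the lipid dolichol in spore formation and had -1.10, 4.19, 4.91, 5.06 and 5.29. RNP1, a putative RNA-binding protein gene, had -0.38, 4.84, 5.74, 5.98 and 6.06. The unnamed locus YLL047W, next to it in the systematic numbering, ran from 4.59 above 0 h at 2 h to 5.88 at 8 h, and the pair may share reads.

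Sulfur genes made up the largest named group of the step from 2 to 4 h. They take up sulfate, reduce it and build methionine and cysteine. Of the 55 genes that rose in that step, 14 were among the 29 of a sulfur list, which was drawn up after these values had been seen. SUL1, a sulfate permease, had log2 ratios of 0.05, 2.52, 4.94, 5.53 and 5.61 at 0, 2, 4, 6 and 8 h. SEO1, a putative permease, had 0.04, 2.73, 5.27, 5.43 and 5.38. MET3, the first enzyme of sulfate reduction, had 0.63, 2.59, 4.34, 4.64 and 3.95. These 3 genes gained 1.76 to 2.54 log2 units between 2 and 4 h, and at most 0.59 in either later step.

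Against 0 h, 19, 26, 26 and 27 of the 29 sulfur genes were higher at 2, 4, 6 and 8 h, with medians of 1.41, 2.53, 2.50 and 2.30. JLP1, a sulfonate dioxygenase, came later, at -0.95, 0.28, 2.08 and 2.45 at 2, 4, 6 and 8 h. PDC6, whose protein is poor in sulfur amino acids, rose by 3.46 from 2 to 4 h and by 1.07 from 4 to 6 h. MET4, the activator of the pathway, stayed within 0.22 of its 0 h value. MET17 overlaps the unnamed locus YLR302C, which rose in the same step, so reads of the pair may not be separable. The Cbf1 letters were found before 31% of the 29 genes, 3.59% of all genes and 20% of the 50 genes with sequence that rose from 2 to 4 h. MET3, SUL1 and SUL2 did not hold them within the 300 bases. The windows of 2 sulfate reduction genes that do read:
MET16, chrXVI:877793-877822, minus strand: ttatcatcatttCACGTGgctagtaaaaga
MET10, chrVI:213069-213098, plus strand: agcttatagaagCACGTGaccacaattcac

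The genes that fell from 2 to 4 h included mitotic genes, genes for separating daughter cells and vegetative cell wall genes. Of 59 genes, 8 were among 17 genes of the G2/M cluster, a list also drawn up after the values had been seen, and 7 were among 11 daughter cell separation genes. Another 8 counts came from the 32 vegetative cell wall genes, with CHS2 on both that list and the G2/M list. CLB1 and CLB2, the mitotic cyclins, fell by 2.19 and 1.77 log2 units in this step. HOF1, of the cytokinetic ring, fell by 2.77, CHS2, the septum chitin synthase, by 1.83, and SWI5, an activator of genes used after mitosis, by 1.59. All 17 G2/M genes had a negative step. At 2 h, by contrast, 16 of the 17 were above their 0 h value, with a median of 0.44, and at 4, 6 and 8 h the median against 0 h was -0.34, -0.41 and -0.25.

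Daughter cell separation genes fell mainly between 2 and 4 h. Of 11, 2 were lower than at the start at 2 h, 9 at 4 and 6 h, and 8 by 8 h, with medians of -0.50, -1.63, -2.00 and -2.10. EGT2, a cell wall enzyme of the daughter, had log2 ratios of 0.85, 0.35, -1.82, -3.25 and -3.35 at 0, 2, 4, 6 and 8 h. CTS1, the chitinase that frees the daughter, had 0.71, -0.39, -1.75, -2.30 and -2.36. DSE1, a daughter-specific protein, had -0.02, -0.65, -2.34, -3.19 and -3.20. All 3 were lower at 6 h than at 4 h, EGT2 by 1.43.

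Cell wall genes of vegetative cells fell in part. Of 32, 6, 10, 11 and 12 were lower at 2, 4, 6 and 8 h, while 3, 4, 2 and 3 were higher. The lower share was 18.8, 31.2, 34.4 and 37.5%, against 4.17, 4.57, 6.38 and 6.64% of all genes. The higher share was 9.38, 12.5, 6.25 and 9.38%, nearer to the 8.53, 8.67, 11.2 and 11.8% of all genes. CWP1, a mannoprotein, had log2 ratios of 0.35, -1.16, -2.74, -3.51 and -3.75 at 0, 2, 4, 6 and 8 h. CIS3, another, was -1.20 against 0 h at 2 h and -3.55 at 4 h, and SRL1, a mannoprotein outside the list, -0.88 and -3.50. TIR3, a wall protein known from growth without oxygen, was 2.18 above 0 h at 2 h and 1.65 at 8 h. G1 cyclin and budding genes had no common direction. Of 27, none, 1, 3 and 3 were higher at 2, 4, 6 and 8 h. The lower ones numbered 2, 5, 5 and 4, or 7.41, 18.5, 18.5 and 14.8%. Their medians against 0 h lay between -0.24 and 0.03, and 14 of the 27 were above 0 h at 8 h. Among them CLN1 fell, to -1.58 against 0 h at 2 h and -2.73 at 4 h, and PCL1 to -1.53 and -3.14. CLN2 stayed within 0.57.

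Core histone genes were lower at 4 and 6 h in part and rose in the last step. Of the 10 histone genes, 2, 4 and 5 were lower at 2, 4 and 6 h and none at 8 h, when HHT1 was the 1 higher gene, at 1.01. The lower share was 20, 40 and 50% at 2, 4 and 6 h, against 4.17, 4.57 and 6.38% of all genes. HTA2, of histone H2A, had log2 ratios of 0.00, -0.95, -1.95, -2.04 and 0.21 at 0, 2, 4, 6 and 8 h. HHF2, of H4, had 0.40, -0.64, -1.60, -1.64 and -0.12. HHT1, of H3, had -0.91, -0.09, -1.04, -1.54 and 0.10. Of the 15 genes that rose from 6 to 8 h, 7 were histone genes: HTA2 by 2.26, HHT1 by 1.64, HHF2 by 1.51, HTB2 by 1.22, HHF1 by 1.18, HTA1 by 1.08 and HHT2 by 1.06. HTB1 and HTZ1 had steps of 0.64 and 0.45, under the rule. Copies of the same core histone gene are alike in sequence, and how reads were divided between them is uncertain.

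Nitrogen genes were among the other gains of the last 2 steps. Nitrogen catabolite repression targets are genes for poor nitrogen sources, held down while good ones last. MEP2, an ammonium permease (chromosome XIV from 357453 to 358952), had log2 ratios of -0.16, 1.94, 2.46, 3.07 and 5.54 at 0, 2, 4, 6 and 8 h. It thus rose by 2.47 from 6 to 8 h, the largest of that step. DAL80, a GATA repressor of this group, had -1.34, -0.49, 0.37, 1.47 and 3.84, rising by 1.10 from 4 to 6 h and 2.37 from 6 to 8 h. YKR033C, an unnamed locus next to it in the systematic numbering, rose by 1.02 and 2.42 in the same steps, and the 2 may share reads. UGA4, a permease for GABA, rose by 1.10 from 6 to 8 h and DAL5, a permease for allantoate, by 1.04 from 4 to 6 h.

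Over the whole group of 31 genes with a value, 11, 13, 16 and 18 were higher at 2, 4, 6 and 8 h, and 4, 5, 3 and 2 were lower. Medians were 0.46, 0.79, 1.15 and 1.20. The higher share was 35.5, 41.9, 51.6 and 58.1%, against 8.53, 8.67, 11.2 and 11.8% of all genes. The lower share was 12.9, 16.1, 9.68 and 6.45%, against 4.17, 4.57, 6.38 and 6.64% of all genes. GAP1, the general amino acid permease, was 1.61 above 0 h at 2 h and 3.71 at 8 h. PUT1 and GDH2, which break down proline and glutamate, were lower at every time, at -1.38 and -1.89 at 8 h. The GATA letters stood before 62.5% of the 32 genes and 14.6% of all genes, and UGA4 did not hold them within the 300 bases. The windows of 4 other genes named here read:
MEP2, chrXIV:357208-357237, plus strand: aagaccctgtgcCTTATCaatgaagtattc
DAL80, chrXI:506659-506688, plus strand: accgatcctgggCTTATCtcgctgcattgt
GAP1, chrXI:514809-514838, plus strand: taaattaaacatGATAAGcgcatagttggg
DAL5, chrX:719483-719512, plus strand: atacggctaataCTTATCattatctggttt

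**Figure D3:**
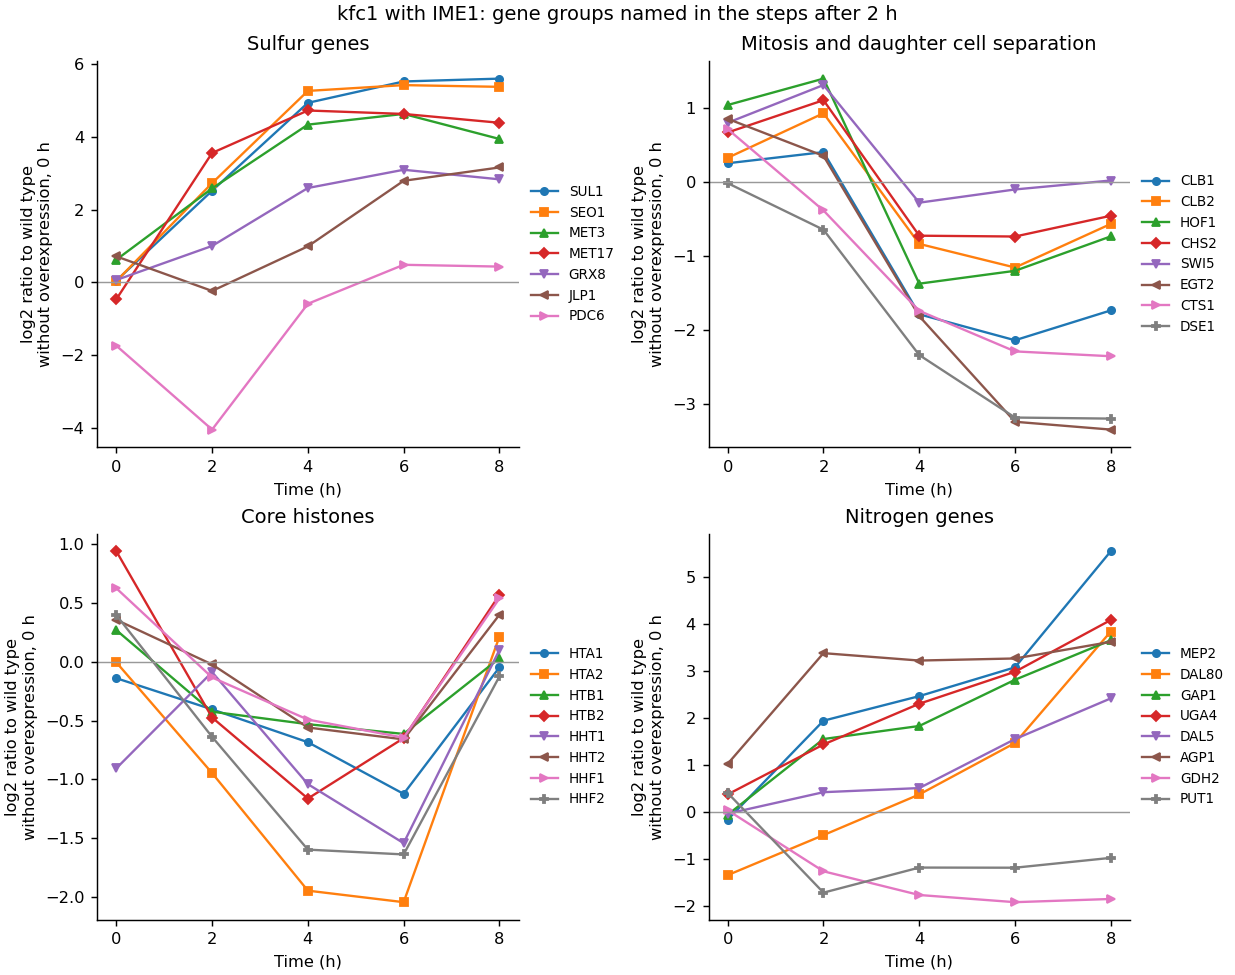
Log2 ratio to wild type without overexpression at 0 h (vertical axes, each with its own scale) against time in h for genes of 4 groups named in the steps after 2 h in kfc1 with IME1. Each point is the authors' combined value of 2 replicates. Sulfur genes gain between 2 and 4 h, mitotic and separation genes drop between 2 and 4 h, and core histones and MEP2 and DAL80 rise between 6 and 8 h.

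The remaining genes of the last 2 steps were few enough to name in part, chosen after their values were seen. From 4 to 6 h AGP3, a permease for acidic amino acids, and PCL1 rose, by 1.14 and 1.07. ADH2, HUG1 and PAU6 fell by 1.31, 1.02 and 1.04. From 6 to 8 h CHA1, a serine deaminase, rose by 1.06 and MRPL19, a mitochondrial ribosomal protein gene, by 1.03. SED1, a cell wall protein gene, fell by 1.00.

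Carbon metabolism and stress genes were where many of the lowest values lay. ADH2, the alcohol dehydrogenase that oxidises ethanol, had log2 ratios of -1.03, -4.18, -4.59, -5.90 and -5.54 at 0, 2, 4, 6 and 8 h. ALD6, which makes acetate, had 0.58, -0.98, -2.32, -2.92 and -3.44. FBP1, of gluconeogenesis, had -0.98, -2.04, -2.85, -3.66 and -4.13. All 3 were lower at 6 and 8 h than at 2 and 4 h. ATO2, an ammonium and acetate transporter gene, was -2.96 against 0 h at 2 h and -2.79 at 8 h.

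Of 42 genes of the TCA cycle, glyoxylate cycle and gluconeogenesis, 8, 9, 15 and 14 were lower at 2, 4, 6 and 8 h, and 5, 5, 6 and 5 were higher. The lower share was 19, 21.4, 35.7 and 33.3%, against 4.17, 4.57, 6.38 and 6.64% of all genes. The higher share was 11.9, 11.9, 14.3 and 11.9%, nearer to the 8.53, 8.67, 11.2 and 11.8% of all genes. Of 39 respiratory genes, 3, 1, 1 and 1 were higher, none was lower at 2 and 4 h, 2 were at 6 h and 4 at 8 h, with medians of 0.05, -0.17, -0.52 and -0.57. Their higher share was below that of all genes at each time, at 7.69, 2.56, 2.56 and 2.56%. Their lower share was 5.13% at 6 h, below that of all genes, and 10.3% at 8 h, above it. CYC7, a cytochrome c isoform, was higher at every time, by 2.86 at 2 h and 2.17 at 8 h.

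Of 45 stress genes, 11, 8, 15 and 16 were lower at 2, 4, 6 and 8 h, while 5, 6, 6 and 6 were higher. The lower share was 24.4, 17.8, 33.3 and 35.6%, against 4.17, 4.57, 6.38 and 6.64% of all genes. The higher share was 11.1, 13.3, 13.3 and 13.3%, nearer to the 8.53, 8.67, 11.2 and 11.8% of all genes. SPI1, a wall protein made in stationary phase, had log2 ratios of 0.87, -2.24, -2.46, -2.76 and -3.08 at 0, 2, 4, 6 and 8 h. HSP82, the Hsp90 chaperone, was higher at every time, 1.33 above 0 h at 2 h and 1.82 at 8 h, and SSA1, an Hsp70, 1.09 and 1.14. HSP26 was -1.14 at 2 h and 0.84 at 4 h. Of 22 trehalose and glycogen genes, 5, 7, 9 and 7 were lower, or 22.7, 31.8, 40.9 and 31.8%, and at most 1 was higher. They included TPS2, at -2.18 at 2 h and -2.08 at 8 h. The stress element was found before 39% of 154 genes lower at every time, 62.2% of the 45 stress genes and 22.4% of all genes.

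At 2 h the lowest of all genes was ARO10, a decarboxylase of aromatic amino acid breakdown, at -4.06 against 0 h. It was -3.55 at 4 h, -3.06 at 6 h and -2.13 at 8 h. CHA1 had a like course, at -3.28, -2.90, -2.44 and -1.38. These 2 were nearer to their 0 h value at 8 h than at 2 h, whereas ADH2, ALD6 and FBP1 were further from it.

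Iron and copper genes fell in part, with 5, 7, 6 and 5 of 27 lower and at most 1 higher. The lower share was 18.5, 25.9, 22.2 and 18.5%, against 4.17, 4.57, 6.38 and 6.64% of all genes. CTR1, a copper transporter gene, was -1.96 against 0 h at 2 h and -2.35 at 8 h, and the cell wall genes for iron retention FIT2 and FIT3 were -1.22 and -1.32 at 8 h. Ribosomal protein genes mostly stayed under the rule. Of 137, 5, 2, 9 and 7 were higher at 2, 4, 6 and 8 h, and 0, 1, 2 and 1 were lower, with medians between 0.15 and 0.32. Their higher share was 3.65, 1.46, 6.57 and 5.11%, below the 8.53, 8.67, 11.2 and 11.8% of all genes. Their lower share, at most 1.46%, was also below that of all genes at each time. Their direction depends on the start: kfc1 without overexpression at 0 h had a median log2 ratio of -0.10 for these genes, above all 5 columns of the course. Of 78 ribosome assembly genes, 6, 3, 23 and 12 were higher and none was lower, with medians of 0.51, 0.43, 0.80 and 0.67. Their higher share was 7.69, 3.85, 29.5 and 15.4%, against 8.53, 8.67, 11.2 and 11.8% of all genes. It was thus below that of all genes at 2 and 4 h.

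Several further lists held few genes past the rule, with no more than 8.7% of any of them higher and no more than 5% lower, against 8.53, 8.67, 11.2 and 11.8% of all genes higher and 4.17, 4.57, 6.38 and 6.64% lower at 2, 4, 6 and 8 h. Of 34 proteasome genes, none was higher and 1 lower at each time. Of 31 autophagy genes, 1, 2, 2 and 2 were higher and none lower. Of 24 purine synthesis genes, 1, 1, 1 and 2 were higher and none lower. Of 20 phosphate regulon genes, 1 was higher at 2 h and 1 lower at 8 h. Of 29 peroxisome and beta-oxidation genes, 2, 2, 1 and 1 were higher and 1 was lower at 8 h. Of 23 thiamine and vitamin B6 genes, 2, 1, 1 and 1 were higher and 1 was lower at each time. Glycolysis and hexose transport genes had a larger lower share than all genes at each time. Of 37, 6, 4, 7 and 5 were lower, or 16.2, 10.8, 18.9 and 13.5%, and 1, 2, 3 and 5 were higher, or 2.7, 5.41, 8.11 and 13.5%.

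Markers of other cell states were checked, since ratios give no level and the labels give no mating type. Of 29 haploid-specific and mating genes, 3, 4, 4 and 6 were higher at 2, 4, 6 and 8 h and none was lower, with medians of 0.37, 0.29, 0.31 and 0.40. The higher genes were 10.3, 13.8, 13.8 and 20.7% of the list, against 8.53, 8.67, 11.2 and 11.8% of all genes. The pheromone genes MF(ALPHA)1 and MFA1 were both higher at every time, by 1.84 and 1.08 at 2 h and by 1.81 and 1.33 at 8 h. Of 7 genes used as selection or strain markers, 4 were higher at every time, among them URA3 and, of amino acid synthesis, HIS3 and LYS2. The receptor genes STE2 and STE3 stayed within 0.42 and 0.22. Their part in the results above was not tested.

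**Figure D4:**
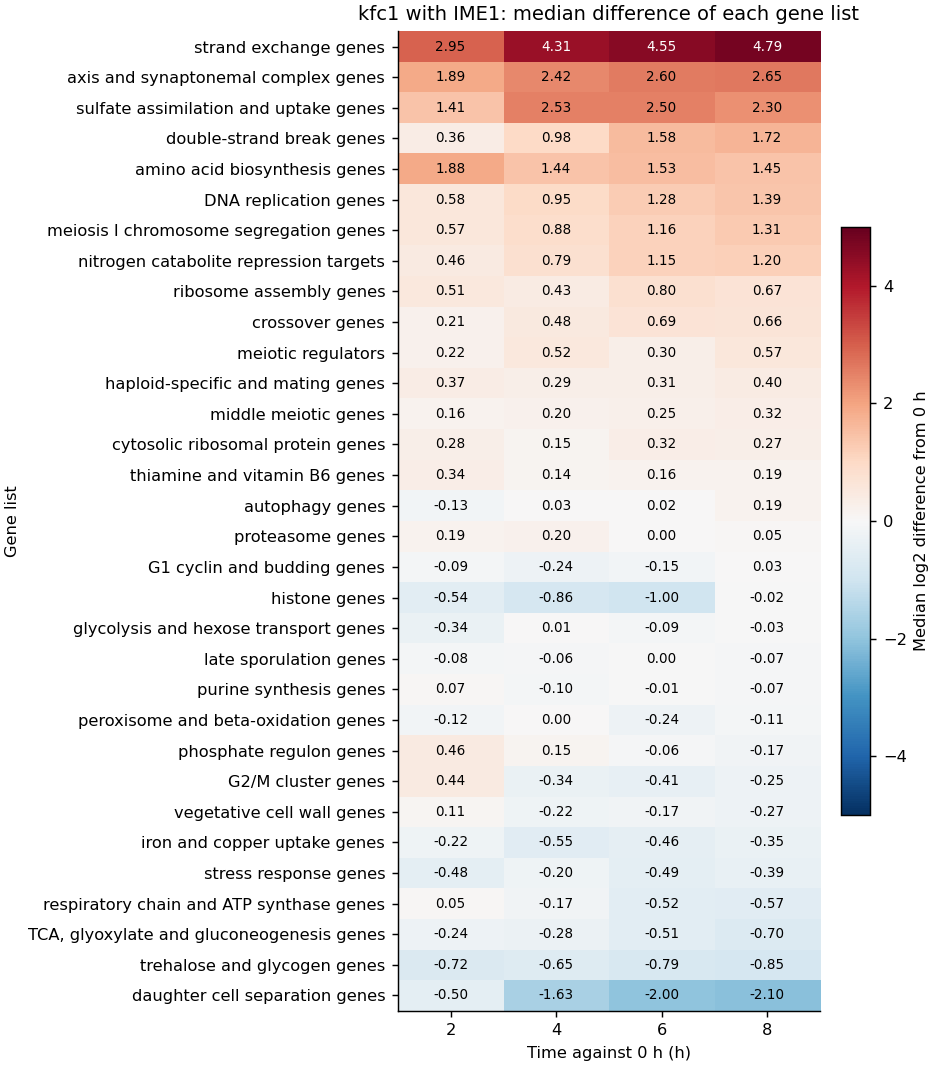
Median log2 difference from 0 h (colour and printed value) of 32 gene lists (rows, without the marker genes, ordered by the 8 h value) at 2, 4, 6 and 8 h (columns) in kfc1 with IME1. Strand exchange genes run from 2.95 at 2 h to 4.79 at 8 h at the top, and daughter cell separation genes stand at -2.10 at 8 h at the bottom.

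Set beside wild type with IME1, the later columns were close and the 0 h columns were not. At 0 h, 696 of 6503 genes (10.7%) were 2-fold higher in kfc1 than in wild type and 121 (1.86%) lower. The same comparison gave 21 (0.323%) higher and 26 (0.4%) lower at 2 h, and 20 (0.307%) and 36 (0.553%) at 4 h. It gave 32 (0.492%) and 35 (0.538%) at 6 h, and 38 (0.584%) and 28 (0.43%) at 8 h. Differences from 0 h in the 2 strains therefore rest on different starts, and the wild-type samples came from another series, so strain and series cannot be told apart.

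Of the genes higher in kfc1, between 85.9% and 90.2% were also higher in wild type with IME1 at the same time, which is 31.2% to 43.3% of the wild-type genes. For lower genes the shares were 68.4% to 78.2% of kfc1 genes and 26.5% to 34.1% of wild-type genes. Of all genes, wild type had 23.5%, 22.6%, 23.9% and 24.1% higher than at 0 h at 2, 4, 6 and 8 h, and 12.3%, 11.5%, 13.7% and 14% lower. At 2 h, 5 of 137 ribosomal protein genes were higher in kfc1, against 133 in wild type. At the start, 0 h, these genes had a median log2 ratio of -1.25 in kfc1, against -2.73 in wild type. By 2 h the values were -0.94 in kfc1, against -0.57 in wild type.

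Steps after 2 h do not use the 0 h columns. Over all genes in wild type, 0.646% rose and 0.4% fell from 2 to 4 h, 0.108% and 0.261% from 4 to 6 h, and 0.246% and 0.123% from 6 to 8 h. In the step from 2 to 4 h, the sulfur list had 14 higher genes in kfc1 and 5 in wild type, and the G2/M list had 8 lower genes in kfc1 and none in wild type. Both lists were drawn up after these values had been seen, so their counts in this step are not independent of that choice. Daughter cell separation genes numbered 7 lower in kfc1 and none in wild type, with medians of -1.36 and -0.02. Against 0 h, however, 2 of the 11 were already lower at 2 h in kfc1 and 6 in wild type, with medians of -0.50 and -1.10, and 8 were lower at 8 h in each strain. Likewise, 19 of the 29 sulfur genes were already higher than at 0 h by 2 h in kfc1 and 23 in wild type, with medians of 1.41 and 2.12. Axis and synaptonemal complex genes had 8 higher in each strain. From 6 to 8 h, 7 histone genes rose in kfc1 and 2 in wild type, and 3 nitrogen genes rose in kfc1 and 5 in wild type. None of these differences between strains could be tested.

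**Figure D5:**
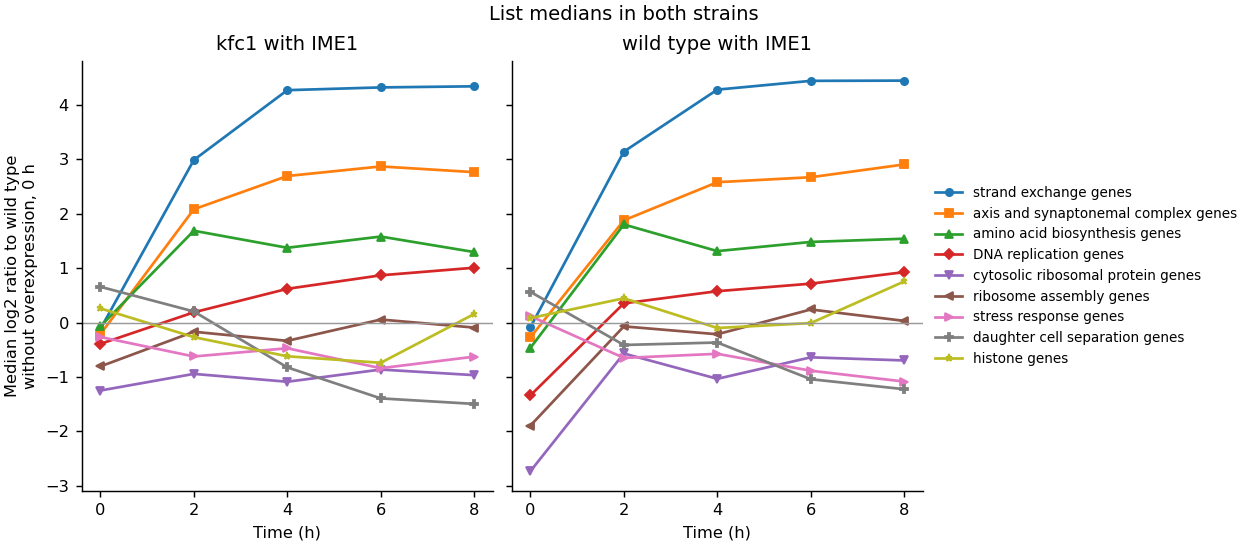
Median log2 ratio to wild type without overexpression at 0 h (vertical axis) of 9 gene lists against time in h in kfc1 with IME1 (left) and wild type with IME1 (right, samples re-used from another series). Ribosomal protein genes start at -1.25 in kfc1 and -2.73 in wild type, while strand exchange genes by 4 h reach 4.27 in kfc1 and 4.28 in wild type.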

How the data were processed

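RNA sequencing of 64 samples, 2 per condition, was deposited as 1 table of log2 ratios, in which the authors had combined the replicates of each of 32 conditions. Per the submitters' processing notes, the authors' build and tools include sacCer3, BWA and DESeq2, with no role or version stated. The base of the logarithm was taken as 2, and the sources used here do not give how reads were counted, strand use or shrinkage. The depth per sample is unknown. The table held 6660 genes, and 4 empty lines were left out. The stated denominator, wild type at 0 h with no overexpression, was checked on 160 genes blank in a later column of that strain: of their 70 values here, 0 were negative.

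Differences between columns were taken with pandas 2.3.3 in Python 3.11.15, and a gene was counted at a log2 difference of at least 1. With 1 combined column per condition there is no test and no p-value. The counting was tested on simulated data. No number pairs samples here, since replicates have no columns.

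Gene lists, members and the rule for named genes were chosen with earlier results of these data known. The rule took the meiotic regulators, the 10 highest and 10 lowest genes with a symbol of each time against 0 h, the 5 highest and 5 lowest of each later step and up to 6 members of each list. Genes named outside it were chosen after their values were seen. Of 33 lists, 2 (sulfur and G2/M) were added, and 6 names were corrected, after values were seen. Gene names and positions are from the RefSeq R64 assembly, in which 5986 of the 6660 genes were found. Sequences were read from its genome by coordinates. Alternatives were a 3-fold rule, columns centred on their median, RefSeq genes only, 67 genes left out that share their values with another gene, taken to have few reads, and kfc1 without overexpression at 0 h as the start. A few genes and 1 motif are not reported here.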

Additional observations from a re-analysis of the deposited data

Results flagged for a closer look

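The genes below and 1 list had differences of opposite sign in kfc1 with IME1 and in wild type with IME1 at each time from 2 to 8 h against their own 0 h column. The difference was not tested in any of them, the 0 h columns of the strains differ, and the wild-type samples came from another series. Values are mean log2 differences from 0 h over 2 to 8 h.

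In the cell wall and cell cycle genes, CIS3 was -2.83 in kfc1 and 0.70 in wild type, SCW10 -1.84 in kfc1 and 1.06 in wild type, and PCL1 -2.16 in kfc1 and 1.29 in wild type. PCL1 had a log2 ratio of 0.82 at 0 h in kfc1 and -0.75 in wild type. The histone gene HTB2 was -1.37 in kfc1 and 0.88 in wild type, and the iron gene FIT1 -1.34 in kfc1 and 1.63 in wild type.

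URA3 was 2.43 in kfc1 and -0.86 in wild type, from log2 ratios at 0 h of 4.47 in kfc1 and 7.94 in wild type. VIR1, taken as the mutant gene, was -1.16 in kfc1 and 0.38 in wild type. RME1 was 0.39 in kfc1 and -0.94 in wild type. Smaller opposite values were found for PRE3, a proteasome subunit (0.36 in kfc1 and -0.14 in wild type), SNZ2, of vitamin B6 synthesis (-0.62 in kfc1 and 0.18 in wild type), HST1 (0.0941 in kfc1 and -0.17 in wild type) and the median of the proteasome list (0.11 in kfc1 and -0.21 in wild type).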

How the results depend on the processing

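No paired analysis was possible because the table holds 1 combined column per condition. Leaving out a replicate was not run for the same reason. With a 3-fold rule, higher and lower genes numbered 198 and 63 at 2 h, 223 and 96 at 4 h, 284 and 130 at 6 h, and 316 and 130 at 8 h against 0 h. The same rule gave 11 and 16 from 2 to 4 h, 1 and 0 from 4 to 6 h, and 5 and 0 from 6 to 8 h, and 133 and 41 at every time. With RefSeq genes only, 4 genes fell from 4 to 6 h and 1 from 6 to 8 h. All 16 counts were within 1.5 times of those reported when columns were centred on their median and when genes with few reads were left out, and so were the 10 counts tried with kfc1 without overexpression at 0 h as the start. With that start, 5 named genes reversed, all of the ribosome or its assembly, at -0.15 for RPS6B, -0.56 for RPS23A, -0.0476 for GAR1, -0.31 for RPS25B and -0.0169 for RPL42A, and 90 further single values moved by 0.5 log2 units or more. Only the 0 h column differs in that setting.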
